A study of Mus musculus with 32 samples.

Results

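Gene expression in the trachea of Car6-/- mice was compared with that of wild-type mice. The comparison took every trachea sample by its title, 14 of the 28 samples in the series: 6 of Car6-/- trachea (numbered 1, 2, 4, 5, 6 and 7) and 8 of wild-type trachea (numbered 1 to 8). The labels describe every mouse as a C57BL/6 male of 2 months, of Car6-/- or wild-type genotype. From each sample 150 ng of total RNA was amplified, labelled with biotin and measured on an Illumina bead array. The other 14 samples are lung of the same genotypes, 6 Car6-/- and 8 wild-type, and are used only where trachea is set beside lung. The labels number the samples within genotype but name no animal, so that p-values measure the spread between these samples, and how the Car6-/- allele was made is not given in the sources used here.

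Car6 encodes carbonic anhydrase VI, the secreted member of the enzyme family that interconverts carbon dioxide and bicarbonate. It is best known from serous glands and their saliva, and bicarbonate is part of the fluid that lines the airway. The trachea is a tube of cartilage rings closed by smooth muscle and lined by ciliated, club, goblet and basal cells, with submucosal glands near its upper end. The thyroid and parathyroid glands, neck muscle, oesophagus, thymus, fat, large vessels and lung lie against it. Bulk RNA from such an organ sums all cell types in the dissected piece, and fewer cells of a type and less RNA per cell cannot be told apart.

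The 16 trachea arrays detected 11859 to 12935 of 25697 probes each, at a detection p-value under 0.01, with median signals of 94.6 to 118.3. A second array had been run for Car6-/- trachea 5 and wild-type trachea 2, and both were averaged. The second array of Car6-/- trachea 5 lay 0.26 (root mean square, log2) from its first, nearer than to any other sample. That of wild-type trachea 2 differed from its own first array by 0.37 and from wild-type trachea 6 by 0.34. Levels below are normalized log2 intensities, and changes are Car6-/- minus wild type on the log2 scale, with the standard error from limma.

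Car6 itself could not be read. Its only probe, ILMN_1257323, was detected on 0 of 7 Car6-/- and 0 of 9 wild-type trachea arrays, with signals of 82.7 to 96.5 in Car6-/- and 79.9 to 100.9 in wild-type trachea. The lowest detection p-value was 0.398 in Car6-/- and 0.211 in wild-type trachea. Both groups lay at background, so that no fold change is given and the genotype labels could not be checked through this gene.

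The Car6-/- samples differed from one another more than the wild-type samples did. The median standard deviation of a gene was 0.33 in Car6-/- and 0.26 in wild-type trachea, and 71.6% of 9718 genes had the larger one in Car6-/- trachea. Between pairs of samples the median root mean square difference was 0.83 in Car6-/- and 0.54 in wild-type trachea. Against the wild-type median, Car6-/- trachea 1, 2 and 6 stood farthest away, at 1.03, 1.02 and 0.86. Car6-/- trachea 7 and 5 followed at 0.67 and 0.59. Car6-/- trachea 4, at 0.31, lay within the range of most wild-type samples. Wild-type trachea 1 and 5 stood at 0.70 and 0.69, and the other 6 wild-type samples at 0.22 to 0.43. Results are therefore also given without Car6-/- trachea 1 and 2, without 1, 2 and 6, and without wild-type trachea 1 and 5, choices made after the data had been seen. Car6-/- trachea 7 stayed in each of these fits.

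No gene passed the threshold, a Benjamini-Hochberg adjusted p under 0.05 in limma (0% of 9718 genes, lowest adjusted p = 0.151). At an unadjusted p under 0.05 there were 1673 genes where 486 are expected by chance, 906 of them higher (9.32% of all genes tested) and 767 lower (7.89%) in Car6-/- trachea. The median change of all genes was 0.04, with 5456 higher and 4262 lower. The count of 0 rested on the samples in the fit. Without Car6-/- trachea 4, the sample nearest to wild type, 693 genes were called, 370 higher and 323 lower. With the spread estimated over all 4 groups, lung included, 1129 were called, 587 higher and 542 lower. The median standard deviation of the same genes in lung was 0.17 in Car6-/- and 0.17 in wild-type samples, lower than in trachea. Without Car6-/- trachea 1, 2 and 6, 0 genes were called and 358 of 9448 had an unadjusted p under 0.05.

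The gene with the smallest p was Rbp7, a cellular retinol-binding protein, after an unnamed probe. Rbp7 measured 8.93 to 9.85 in Car6-/- trachea (median 9.39, n = 6) and 7.41 to 8.94 in wild-type trachea (median 7.89, n = 8). Only Car6-/- trachea 4 reached into the wild-type range, and the change was 1.35 ± 0.24, a 2.55-fold higher level (limma adjusted p = 0.151). The probe ILMN_2958159, to which no gene symbol is given, measured 10.92 to 12.33 in Car6-/- trachea (median 11.83) and 10.20 to 10.96 in wild-type trachea (median 10.40), a change of 1.24 ± 0.21. Only Car6-/- trachea 5 fell inside the wild-type range. Both were called without Car6-/- trachea 4 (adjusted p = 0.0149 for ILMN_2958159 and 0.0150 for Rbp7), ILMN_2958159 also without Car6-/- trachea 5 (adjusted p = 0.0336) and Rbp7 also without wild-type trachea 1 (adjusted p = 0.0449). Car6-/- trachea 4 and 5 were the Car6-/- samples nearest to the wild-type median. Leaving either out therefore favours a call and adds no support to the difference.

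Angptl4, a secreted inhibitor of lipoprotein lipase that fatty acids induce, measured 9.01 to 10.86 in Car6-/- trachea (median 10.19) and 8.05 to 9.47 in wild-type trachea (median 8.37). The wild-type maximum was exceeded by 5 of 6 Car6-/- samples, and the change was 1.58 ± 0.29. Elovl6, which elongates long-chain fatty acids, measured 8.89 to 10.78 in Car6-/- and 8.04 to 9.04 in wild-type trachea, a change of 1.20 ± 0.27. Kcnk3, a background potassium channel also known from brown adipocytes, measured 5.31 to 8.45 in Car6-/- and 4.75 to 5.73 in wild-type trachea, a change of 1.98 ± 0.44. Its 4 high samples were Car6-/- trachea 1, 2, 6 and 7. Kng2, a kininogen, stood at 1.13 ± 0.25 and was above the detection limit in all 6 Car6-/- samples and 4 of 8 wild-type ones. Pdlim7, an actin-bound adaptor, stood at 0.63 ± 0.13 and the unnamed probe ILMN_2769656 at 0.49 ± 0.11. Adjusted p was 0.151 for each of these genes.

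Lower in Car6-/- trachea, with the smallest p, was Tcea3, a transcript elongation factor. It measured 7.98 to 9.37 in Car6-/- trachea (median 8.59) and 9.17 to 10.31 in wild-type trachea (median 9.86), a change of -1.20 ± 0.23, and only Car6-/- trachea 4 reached the wild-type range. Padi2, which turns arginine in proteins into citrulline, measured 4.22 to 4.97 in Car6-/- and 4.87 to 5.23 in wild-type trachea. It was above the detection limit in 1 of 6 Car6-/- samples and 6 of 8 wild-type ones, with a change of -0.61 ± 0.12. Several of the others serve excitable or contracting muscle. Tmem38a, a cation channel of the sarcoplasmic reticulum, stood at -1.42 ± 0.32, the potassium channel gene Kcna7 at -1.17 ± 0.27 and the sodium channel subunit gene Scn4b at -1.80 ± 0.43. Slc25a12, the mitochondrial aspartate and glutamate carrier, stood at -1.11 ± 0.26, the ADP-ribosyltransferase gene Art5 at -1.31 ± 0.30 and Adsl, an enzyme of purine synthesis, at -0.67 ± 0.16. Abcb4, which moves phosphatidylcholine across membranes, stood at -1.37 ± 0.34. The unnamed probes ILMN_1220244 and ILMN_1225312 stood at -1.17 ± 0.24 and -0.77 ± 0.18. All 6 Car6-/- samples lay below the wild-type median of each of these genes, and adjusted p was 0.151 for each.

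**Figure D1:**
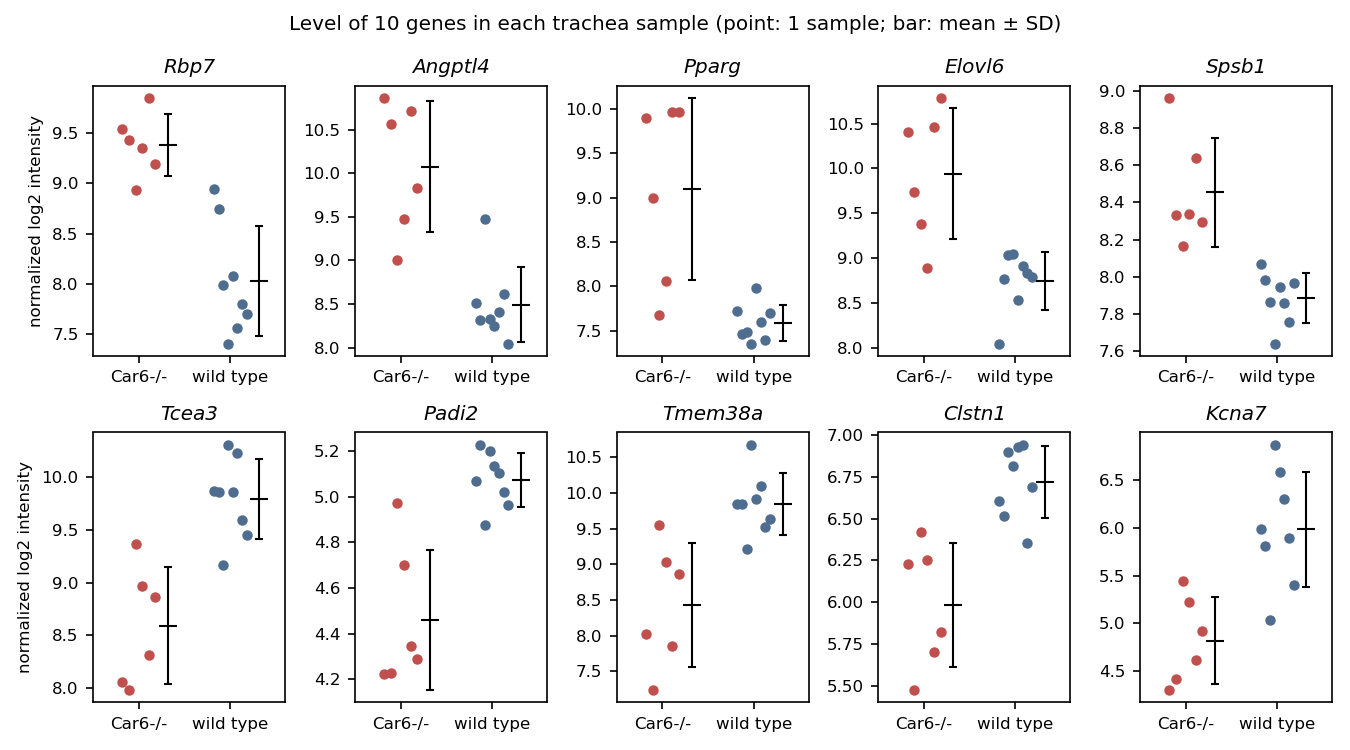
Normalized log2 intensity of 10 genes in each sample of Car6-/- trachea (n = 6, left in each panel) and wild-type trachea (n = 8, right), with the mean ± SD. Rbp7 measured 8.93 to 9.85 in Car6-/- and 7.41 to 8.94 in wild-type trachea, and Spsb1 is the only one of the 10 whose groups do not overlap.

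Groups that did not overlap were rare. All 6 Car6-/- samples lay above all 8 wild-type samples for 14 genes (0.144% of 9718) and below them for 8 (0.0823%). Of the 14, 4 were among the genes with the smallest p. Ldah, a hydrolase of lipid droplets, measured 8.05 to 8.81 in Car6-/- and 7.72 to 7.99 in wild-type trachea, a change of 0.61 ± 0.12. Spsb1, which directs target proteins to a ubiquitin ligase, measured 8.17 to 8.96 in Car6-/- and 7.64 to 8.07 in wild-type trachea (0.57 ± 0.12). Slc6a13, a transporter of GABA and taurine, stood at 0.63 ± 0.14 and Ccdc92 at 0.67 ± 0.15. Ckb, the brain-type creatine kinase that smooth muscle also uses, measured 10.65 to 11.91 in Car6-/- and 10.27 to 10.61 in wild-type trachea (0.60 ± 0.17). Hspa8, the constitutive heat shock cognate chaperone, measured 13.34 to 13.71 in Car6-/- and 12.92 to 13.31 in wild-type trachea (0.33 ± 0.09). The rest, named after their values were seen, were Cdr2 (0.66 ± 0.16), the glutathione transferase gene Gstp3 (0.70 ± 0.17), Rcl1 (0.39 ± 0.11), the deubiquitinase gene Josd1 (0.34 ± 0.09), the vesicle tethering gene Trappc4 (0.31 ± 0.08), the tRNA-processing genes Elac2 (0.30 ± 0.09) and Pus1 (0.28 ± 0.09), and ILMN_1216950 (0.33 ± 0.09).

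The 8 genes below, also named after their values were seen, held several of fast or striated muscle. Actn3, the actinin of fast fibres, stood at -2.35 ± 0.81, Mybpc2, the fast myosin-binding protein, at -2.26 ± 0.68, and the tropomyosin gene Tpm2 at -1.86 ± 0.82. Itgb1bp2, which encodes melusin of striated muscle, stood at -0.88 ± 0.27 and the phosphatase gene Ptp4a3 at -0.69 ± 0.19. The others were the exchange factor gene Arhgef19 (-0.96 ± 0.27), the co-chaperone gene Dnajc18 (-0.40 ± 0.13) and Ipo5, an importin (-0.25 ± 0.09). Adjusted p for the 22 genes was 0.151 to 0.263.

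Marker lists showed how the tissues in and around the trachea differed between samples. A list level is the mean log2 intensity of its tested members in a sample. Counts of members at an unadjusted p under 0.05 stand beside the 9.32% higher and 7.89% lower over all genes. Of 18 fast-fibre genes 18 were lower and 14 had an unadjusted p under 0.05, with a median change of -1.82. The list level was 6.85, 9.15, 11.54, 11.37, 10.75 and 11.13 in Car6-/- trachea 1, 2, 4, 5, 6 and 7, against 11.33 to 12.49 in wild-type trachea. Car6-/- trachea 4 and 5 thus lay within the wild-type range and the other 4 below it, and without 1, 2 and 6 the median was -0.48. Ampd1, the muscle AMP deaminase, measured 6.40 to 9.17 in Car6-/- and 9.08 to 11.03 in wild-type trachea (-1.53 ± 0.45). Myl1, a fast myosin light chain and the brightest of the list, measured 12.68 to 13.77 in Car6-/- and 13.34 to 13.68 in wild-type trachea (-0.13 ± 0.17). Among 25 slow-fibre and shared muscle genes 21 were lower, 16 of them with an unadjusted p under 0.05 (median -1.03, and -0.30 without Car6-/- trachea 1, 2 and 6). The Z-disc genes Ldb3 (-1.24 ± 0.32), Tcap (-1.28 ± 0.34) and Myot (-1.48 ± 0.40) and the atrophy ubiquitin ligase gene Fbxo32 (-0.72 ± 0.20) led them. The part of muscle content in the lower muscle genes named before was not tested.

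The thyroid list had 11 of 11 members lower, 8 with an unadjusted p under 0.05 (median -1.34, and -0.97 without Car6-/- trachea 1, 2 and 6). Tg, the thyroglobulin gene, measured 5.33, 5.04, 13.49, 13.59, 12.97 and 4.49 in Car6-/- trachea 1, 2, 4, 5, 6 and 7, against 13.54 to 13.70 in wild-type trachea. It was low in Car6-/- trachea 1, 2 and 7 and high in the other samples of both groups, so that the change of -4.46 ± 1.45 averages over a split within the Car6-/- group. Cdh16, a cadherin of thyroid and kidney, followed the same split, with 4.34 to 5.28 in Car6-/- trachea 1, 2 and 7, 8.13 in 6, 10.80 and 11.07 in 4 and 5, and 9.86 to 11.48 in wild-type trachea (-3.23 ± 0.98). The list of parathyroid and C cells held only 4 tested members. Pth, the parathyroid hormone gene, was not detected in Car6-/- trachea 1 and 6 (4.25 and 4.35), reached 10.06 and 10.00 in 2 and 7, and 13.11 and 13.44 in 4 and 5. In wild-type trachea it was 12.95 to 13.78 in 7 samples and 4.58 in wild-type trachea 5. This list differed within both groups, and its median of -2.49 was -0.28 without Car6-/- trachea 1, 2 and 6.

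Gland and goblet cell genes were lower in part of the Car6-/- samples. Of 17 submucosal gland genes 15 were lower, 8 with an unadjusted p under 0.05 (median -0.71). The median was -0.84 without Car6-/- trachea 1 and 2, -0.56 without 1, 2 and 6 and -1.14 without 5 alone. These fits all kept Car6-/- trachea 7, the sample with the lowest level. The gland list level was 8.01, 9.12, 11.12, 11.33, 10.04 and 7.80 in Car6-/- trachea 1, 2, 4, 5, 6 and 7, against 10.36 to 11.80 in wild-type trachea. Dcpp1, a demilune cell and parotid protein, gave the widest difference. It measured 4.58, 4.86, 13.63, 13.26, 8.75 and 4.44 in those Car6-/- samples, against 12.20 to 13.71 in wild-type trachea (-5.00 ± 1.38). Its relatives Dcpp2 (-4.04 ± 1.25) and Dcpp3 (-3.72 ± 1.21) split in the same way, low in Car6-/- trachea 1, 2 and 7 and at the wild-type level in 4 and 5, and near-identical family members can share probe signal. Wfdc18, a secreted protease inhibitor gene, stood at -3.14 ± 1.08. Wfdc2, the brightest member and also made by surface cells, stood at 0.11 ± 0.15. The goblet and mucus list had 8 of 8 members lower (median -0.92), among them the mucosal peptide gene Tff1 (-3.11 ± 0.88, above the detection limit in 3 of 6 Car6-/- samples and all 8 wild-type ones), Gp2 (-2.73 ± 0.92) and the secretory cell factor gene Spdef (-1.13 ± 0.43). Gland and thyroid genes were low in the same Car6-/- samples, and the part of either list in the other was not tested.

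Ciliated and club cell genes of the surface epithelium differed less. Of 16 ciliated cell genes 12 were higher, 4 with an unadjusted p under 0.05, and the median was 0.35 (-0.09 without Car6-/- trachea 1, 2 and 6). Rfx2, a factor that drives cilium genes, measured 7.43 to 8.52 in Car6-/- and 7.16 to 7.51 in wild-type trachea (0.37 ± 0.15). Ccno, needed to multiply centrioles, stood at 0.45 ± 0.18, while Mlf1 was lower (-0.64 ± 0.20). The 19 club and surface secretory genes had a median of 0.14, with 13 higher, and of -0.16 without Car6-/- trachea 1, 2 and 6. Only 1 of them had an unadjusted p under 0.05. Hp, the haptoglobin gene, was the member with the smallest p, with 9.82 to 12.20 in Car6-/- and 9.38 to 10.64 in wild-type trachea (1.16 ± 0.33). Hp is also made by adipocytes and lung, whose genes were high in several of the same samples.

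The list of basal cells and stratified epithelium split both groups. Its level was 6.05, 6.34, 9.99, 7.67, 6.79 and 9.44 in Car6-/- trachea 1, 2, 4, 5, 6 and 7. In wild-type trachea it was 6.58 and 6.87 in samples 1 and 5 and 9.52 to 9.84 in the other 6. With 33 of 34 members lower the median was -1.21, but only 4 had an unadjusted p under 0.05, and the median was 0.06 without Car6-/- trachea 1, 2 and 6 and -1.84 without wild-type trachea 1 and 5. Lamb3, a laminin chain under basal cells, measured 7.98 to 9.32 in Car6-/- and 9.04 to 9.53 in wild-type trachea (-0.62 ± 0.18). Krt15, a basal keratin and the brightest member, stood at -0.54 ± 0.29. Krt6b (-1.77 ± 0.67) and Krt14 (-1.83 ± 0.78), keratins of stratified and basal layers, and the calmodulin-like gene Calml3 (-1.37 ± 0.60) were the other members with the smallest p. The same 2 wild-type samples, 1 and 5, were also low in T cell and proliferation genes.

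Cartilage genes were mostly lower and smooth muscle genes mostly higher. Of 20 cartilage genes 18 were lower, 7 with an unadjusted p under 0.05 (median -0.54, and -0.73 without Car6-/- trachea 1, 2 and 6). Sox9, the regulator of chondrocytes that gland and airway epithelium also express, measured 5.34 to 7.28 in Car6-/- and 6.60 to 8.15 in wild-type trachea (-1.05 ± 0.32). Matn1, a matrix protein of tracheal cartilage, measured 6.83 to 8.00 in Car6-/- and 6.94 to 9.41 in wild-type trachea (-1.18 ± 0.36). Wild-type trachea 8, at 6.94, was the only wild-type sample within the Car6-/- range. Chad, chondroadherin and the brightest member, stood at -0.38 ± 0.24. The list level was 6.86 to 7.65 in Car6-/- and 6.75 to 8.45 in wild-type trachea, so that all Car6-/- levels lay within the wild-type range. Of 16 smooth muscle genes 14 were higher, with 10 of them and 2 lower members at an unadjusted p under 0.05 (median 0.56, and 0.19 without Car6-/- trachea 1, 2 and 6). Tagln, an actin-binding protein of smooth muscle, measured 5.96 to 7.46 in Car6-/- and 5.66 to 6.29 in wild-type trachea (0.90 ± 0.23). Acta2, smooth muscle actin, measured 12.14 to 13.67 in Car6-/- and 11.93 to 12.51 in wild-type trachea (0.69 ± 0.19). The 2 lower members, Tpm2 and the desmin gene Des (-0.43), named after their values were seen, are also expressed in skeletal muscle. Of the fibroblast genes, the elastin gene Eln stood at 0.76 ± 0.23 and Loxl1, which crosslinks it, at 0.41 ± 0.13, and the list of 27 had a median of 0.11, and -0.12 without Car6-/- trachea 1, 2 and 6.

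**Figure D2:**
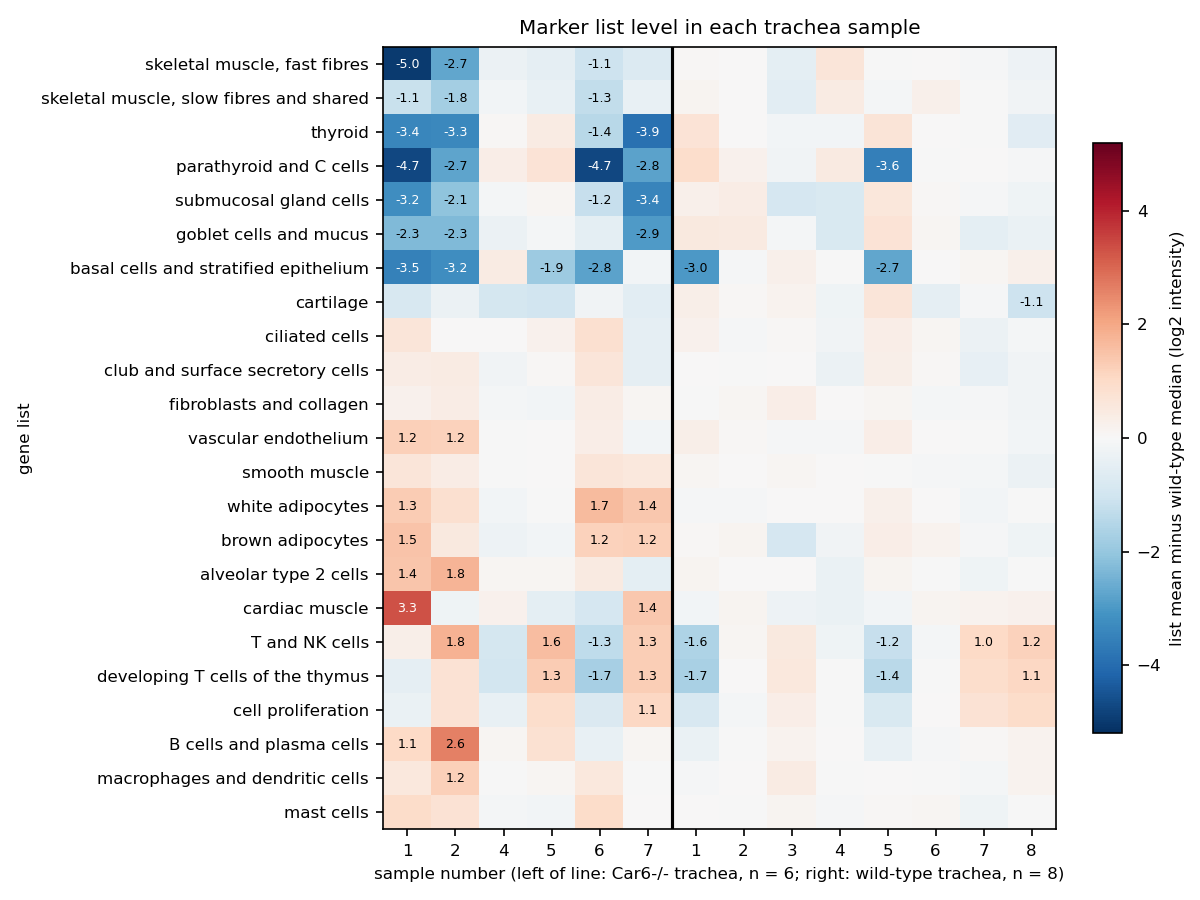
Mean log2 intensity of each marker list (rows) in each sample (columns), as the difference from the wild-type median, with Car6-/- trachea left of the line (n = 6) and wild-type trachea right of it (n = 8). Car6-/- trachea 1, 2, 6 and 7 differ from wild type in several lists at once, for instance thyroid at 5.39, 5.44, 7.34 and 4.93, against 8.86 and 9.23 in 4 and 5.

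Fat genes were higher. Of 25 white adipocyte genes 24 were higher, 20 of them with an unadjusted p under 0.05 (median 0.84). The level was 9.73, 9.22, 8.25, 8.37, 10.05 and 9.78 in Car6-/- trachea 1, 2, 4, 5, 6 and 7, against 8.25 to 8.67 in wild-type trachea, so that the same 4 samples lay above and 4 and 5 within the wild-type range. The median was 0.72 without Car6-/- trachea 1 and 2 and 0.39 without 1, 2 and 6. Both fits kept Car6-/- trachea 7, at 9.78. Pparg, the master factor of adipocyte differentiation, measured 7.68 to 9.97 in Car6-/- trachea (median 9.44) and 7.36 to 7.98 in wild-type trachea (median 7.54), a change of 1.51 ± 0.34. Rbp4, a retinol carrier and adipokine, stood at 1.01 ± 0.28 and Lpl, lipoprotein lipase and the brightest member, at 0.45 ± 0.21. Of 13 brown adipocyte genes 11 were higher (median 0.47, and 0.30 without Car6-/- trachea 1, 2 and 6). Ucp1, the uncoupling protein of brown fat, measured 11.77, 11.25, 7.78, 8.46, 12.02 and 11.68 in those Car6-/- samples, against 6.06 to 8.83 in wild-type trachea (2.33 ± 0.69). Cidea, a lipid droplet protein, measured 9.80 to 12.65 in Car6-/- and 9.44 to 10.35 in wild-type trachea (1.49 ± 0.44).

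Lipid metabolism genes were high in the same samples. Of 27 fatty acid oxidation genes 24 were higher, 17 with an unadjusted p under 0.05 (median 0.52, and 0.24 without Car6-/- trachea 1, 2 and 6). Besides Angptl4 these included the carnitine carrier gene Slc25a20 (9.74 to 11.09 in Car6-/- and 9.49 to 9.96 in wild-type trachea). Of 25 genes of fatty acid and sterol synthesis 18 were higher, 10 with an unadjusted p under 0.05 (median 0.24). When these were divided by pathway, a split made after the values were seen, the fatty acid and sterol genes stood apart. All 12 fatty acid genes were higher, 9 with an unadjusted p under 0.05, with a median of 0.76. Acly, which supplies acetyl-CoA, measured 11.50 to 13.11 in Car6-/- and 11.19 to 11.66 in wild-type trachea (1.11 ± 0.26). Acaca, the first committed enzyme, measured 10.40 to 12.53 in Car6-/- and 10.22 to 10.72 in wild-type trachea (1.25 ± 0.32). The lipogenic factor gene Srebf1, like Srebf2 named after its values were seen, stood at 0.70 ± 0.27. Of 13 sterol genes 6 were higher and 7 lower, 1 with an unadjusted p under 0.05, with a median of -0.06, and the pathway regulator gene Srebf2 stood at 0.12. White adipocyte levels were above the wild-type range in Car6-/- trachea 1, 2, 6 and 7, the samples in which Acaca was also above it, and their part in the lipid results was not tested.

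**Figure D3:**
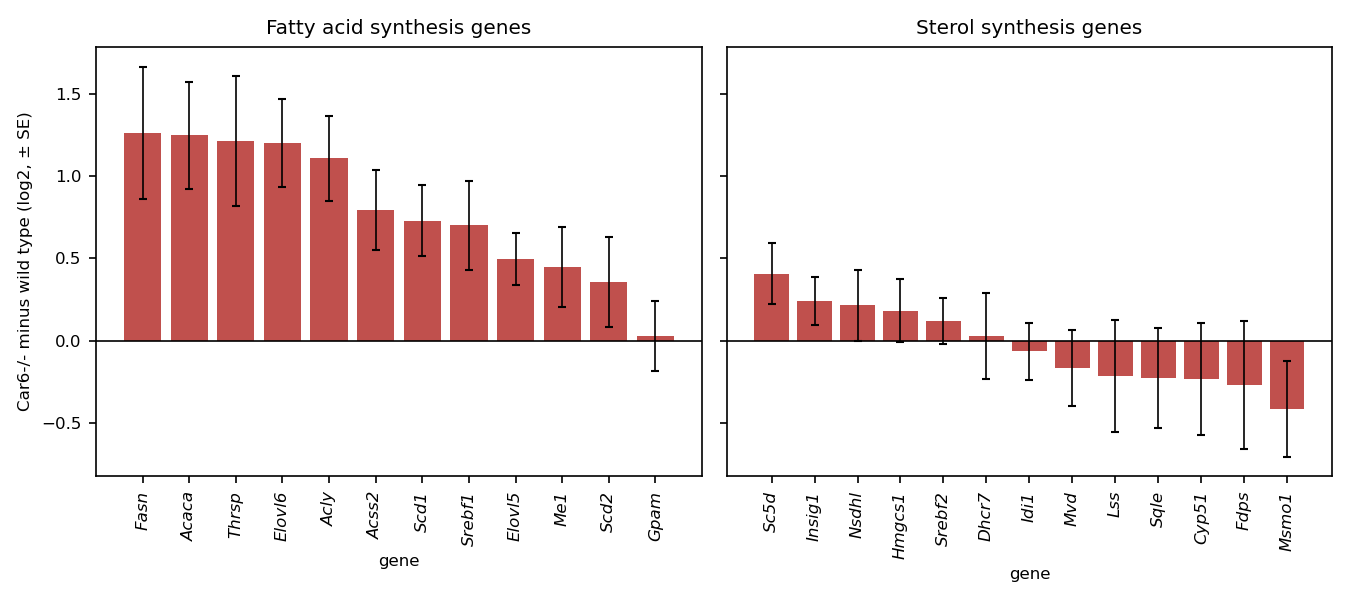
Change of each gene of fatty acid synthesis (left) and sterol synthesis (right), Car6-/- minus wild-type trachea on the log2 scale with its standard error. The 12 fatty acid genes all lie above 0 with a median of 0.76, and the 13 sterol genes lie on both sides with a median of -0.06.

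Of 23 glycolysis genes 16 were lower, 9 with an unadjusted p under 0.05, and 7 higher, 3 with an unadjusted p under 0.05 (median -0.24, and -0.13 without Car6-/- trachea 1 and 2). The 4 with the smallest p, Phkg1 (-1.69 ± 0.45), Eno3 (-1.27 ± 0.34), Pygm (-1.52 ± 0.43) and Pfkm (-1.09 ± 0.31), are muscle forms of phosphorylase kinase, enolase, glycogen phosphorylase and phosphofructokinase. The liver form of phosphofructokinase, Pfkl, named after its values were seen, was higher (0.68). Of 47 respiratory chain and ATP synthase genes 40 were higher (median 0.18, and 0.05 without Car6-/- trachea 1, 2 and 6), 5 of them and 1 lower member with an unadjusted p under 0.05. These counts were near or below the shares of all genes at that p (9.32% higher and 7.89% lower). Cox8a (0.52 ± 0.14) and Cox6a1 (0.66 ± 0.19), cytochrome oxidase subunits of non-muscle type, had the smallest p.

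Sftpc of lung and 2 atrial genes of heart were each far above wild type in 2 Car6-/- samples. Sftpc, the surfactant protein of alveolar type 2 cells, measured 13.01 and 13.25 in Car6-/- trachea 1 and 2, 5.57 to 7.79 in Car6-/- trachea 4 to 7 and 4.29 to 6.79 in wild-type trachea. The 20 alveolar type 2 genes had a median of 0.28, and -0.04 without Car6-/- trachea 1 and 2. Their level was 9.55 and 9.90 in Car6-/- trachea 1 and 2 and 8.57 in 6, against 7.80 to 8.29 in wild-type trachea. Of 27 vascular endothelial genes 23 were higher (median 0.45), with levels of 9.33 and 9.29 in Car6-/- trachea 1 and 2, 7.97 to 8.45 in Car6-/- trachea 4 to 7 and 7.93 to 8.44 in wild-type trachea. Without Car6-/- trachea 1 and 2 the median was 0.01. Of 9 cardiac genes 5 were higher and 4 lower, with changes of -1.35 to 2.58 and a median of 0.05. An unadjusted p under 0.05 was found for 4 of the higher and 1 of the lower ones. The list level was 12.00 and 10.08 in Car6-/- trachea 1 and 7 and 7.83 to 8.90 in 2, 4, 5 and 6, against 8.33 to 8.89 in wild-type trachea. Myl7, the atrial myosin light chain, measured 13.08 in Car6-/- trachea 1 and 10.41 in 7, 4.29 to 7.63 in 2, 4, 5 and 6, and 4.33 to 5.86 in wild-type trachea. Myl4, another atrial light chain, measured 13.71 and 11.94 in the same samples and 7.80 to 8.67 in wild-type trachea.

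Lymphocyte gene levels varied within both groups. All 22 T and NK cell genes were higher on average (median 0.36, 4 with an unadjusted p under 0.05), but the median was -0.25 without wild-type trachea 1 and 5 and 0.79 without Car6-/- trachea 1, 2 and 6. Their level was 7.25, 8.76, 6.03, 8.57, 5.65 and 8.23 in Car6-/- trachea 1, 2, 4, 5, 6 and 7, against 5.35 to 8.13 in wild-type trachea. The 11 genes of developing T cells, a list added after the values were seen, had levels of 7.28, 8.50, 6.78, 9.08, 6.03 and 9.04 in Car6-/- trachea, against 6.07 to 8.81 in wild-type trachea (median change 0.08, and -0.60 without wild-type trachea 1 and 5). Of 31 proliferation genes 28 were higher, but only 1 with an unadjusted p under 0.05 (median 0.16, and -0.11 without wild-type trachea 1 and 5). Their level was likewise highest in Car6-/- trachea 7, 5 and 2 and in wild-type trachea 8 and 7. Il7r, the interleukin 7 receptor, stood at 1.08 ± 0.37 and the NK receptor gene Klrd1 at 0.75 ± 0.30. B cell genes, 7 of 10 higher (median 0.79), were led by 2 samples. Of 24 B cell genes on the array only these 10 passed the detection filter. Fcmr, the IgM receptor, measured 8.65 and 11.14 in Car6-/- trachea 1 and 2, 7.50 in 5, 5.08 to 5.69 in 4, 6 and 7 and 4.29 to 5.09 in wild-type trachea (2.50 ± 0.76). It passed the filter narrowly, and was tested in only 8 of the 14 fits that left out 1 sample. Its wild-type values lay near the lowest detected levels of the arrays (4.85 to 5.10), so that the size of its change is imprecise. The B cell median was -0.02 without Car6-/- trachea 1 and 2.

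Immune response genes were mostly higher. Of 35 interferon response genes 32 were higher, 11 with an unadjusted p under 0.05 (median 0.29, and 0.04 without Car6-/- trachea 1, 2 and 6). Ifi27, an interferon-induced membrane protein, measured 11.80 to 13.13 in Car6-/- trachea (median 12.80) and 11.71 to 12.09 in wild-type trachea (median 11.91), with 5 of 6 Car6-/- samples above all wild-type samples (0.76 ± 0.18). Stat2, which carries the type I interferon signal, measured 5.72 to 6.16 in Car6-/- and 5.31 to 5.90 in wild-type trachea (0.38 ± 0.11). All 17 MHC class I genes were higher (median 0.39, and 0.10 without Car6-/- trachea 1, 2 and 6), led by Nlrc5, their transactivator (0.86 ± 0.28), with H2-D1 at 0.56 ± 0.23. All 11 MHC class II genes were higher too, 2 with an unadjusted p under 0.05 (median 0.45, and 0.12 without Car6-/- trachea 1 and 2). The class II transactivator gene Ciita stood at 0.87 ± 0.40. Of 18 lymphoid stroma and chemokine genes 15 were higher (median 0.44, and 0.14 without Car6-/- trachea 1 and 2), among them Cxcl9 (5.26 to 7.84 in Car6-/- and 5.11 to 6.01 in wild-type trachea), Ccl7 (0.71 ± 0.23) and the B cell survival factor gene Tnfsf13b (0.82 ± 0.32). The 22 macrophage and dendritic cell genes had a median of 0.23 with 19 higher, such as the complement gene C1qa (0.54 ± 0.21), and of -0.03 without Car6-/- trachea 1, 2 and 6. Only 2 of them had an unadjusted p under 0.05. The 13 neutrophil genes had 0 with an unadjusted p under 0.05 (median 0.47, and 0.01 without Car6-/- trachea 1 and 2). B cell and endothelial levels were above the wild-type range in Car6-/- trachea 1 and 2, where the MHC and chemokine levels were also highest. The B cell level was also above it in Car6-/- trachea 5 (6.78, against at most 6.19) and the endothelial level narrowly in Car6-/- trachea 6. The MHC class I level was above it in 5 of 6 Car6-/- samples. The part of B cells and endothelium in these results was not tested.

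**Figure D4:**
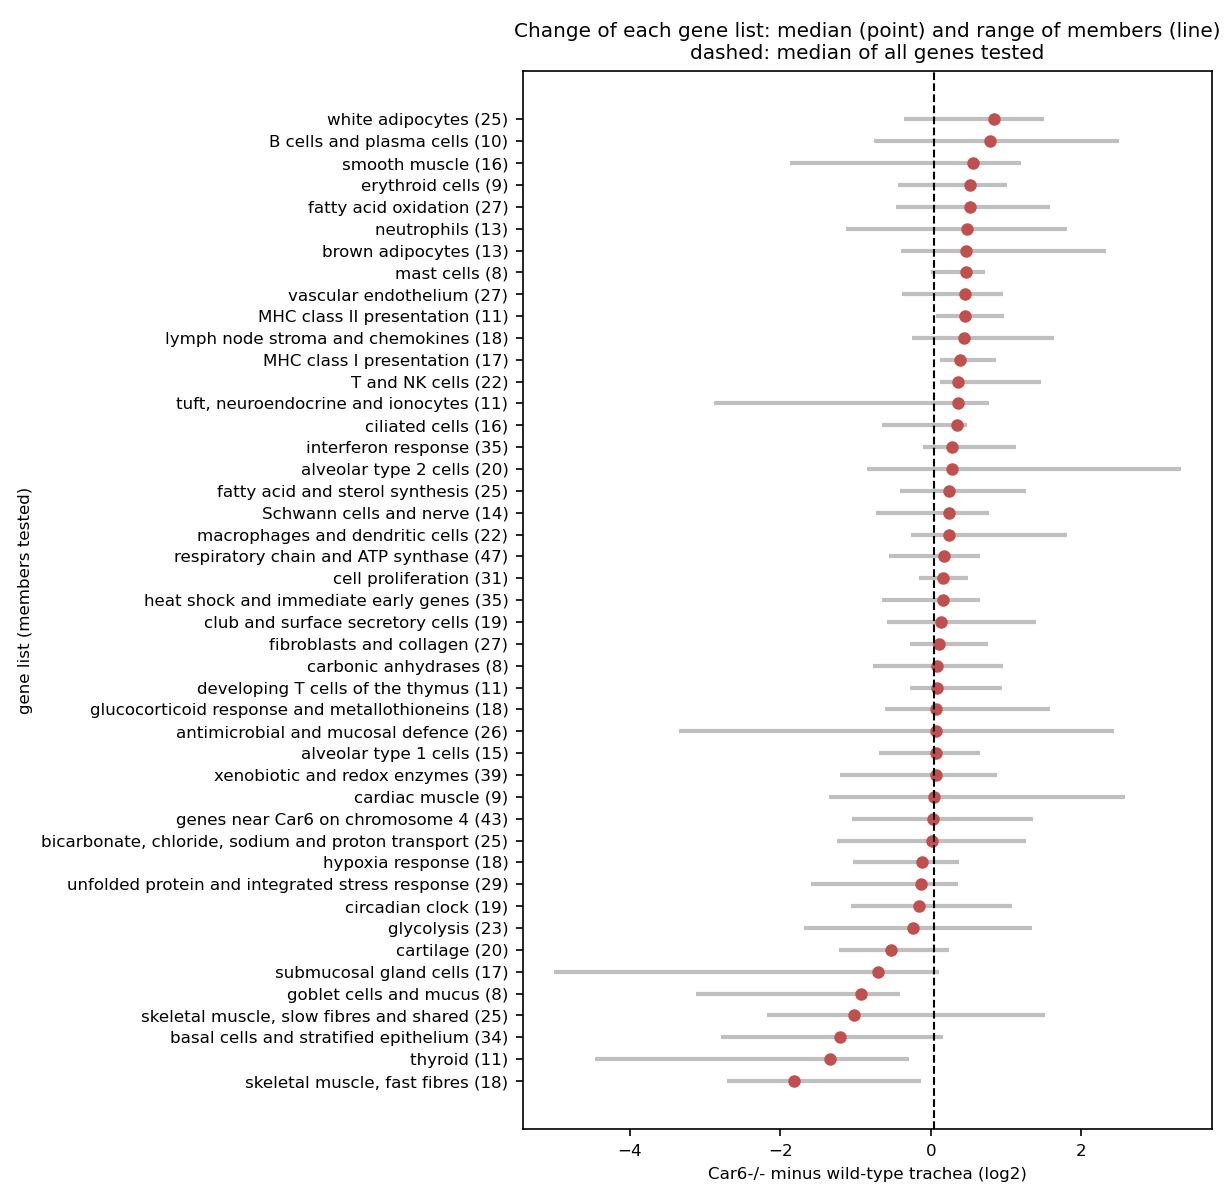
Median change (point) and lowest to highest change of the members (line) for each gene list with at least 8 tested members, Car6-/- minus wild-type trachea on the log2 scale. Fast-fibre muscle (-1.82) and thyroid (-1.34) have the lowest medians and white adipocytes (0.84) the highest, and the dashed line marks the median of all genes (0.04).

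Some clock genes stood apart from this pattern of samples. The 19 tested members had a median of -0.16, with 2 higher and 6 lower at an unadjusted p under 0.05. The median was -0.07 without Car6-/- trachea 1 and 2 and -0.22 without 1, 2 and 6. Arntl, the clock activator BMAL1, measured 6.88, 7.07, 7.16, 7.55, 6.43 and 6.45 in Car6-/- trachea 1, 2, 4, 5, 6 and 7, against 5.31 to 6.47 in wild-type trachea (0.80 ± 0.20). It was above all wild-type samples in Car6-/- trachea 1, 2, 4 and 5. Dbp, an output factor that rises and falls opposite to BMAL1, measured 10.15, 9.74, 10.62, 9.99, 11.61 and 11.52 in those samples, against 11.32 to 11.87 in wild-type trachea (-1.06 ± 0.27). The same 4 Car6-/- samples were below the wild-type range, and 6 and 7 within it. Tef, a relative of Dbp, measured 7.85 to 8.43 in these 4, 9.60 and 9.13 in 6 and 7 and 8.93 to 9.50 in wild-type trachea (-0.67 ± 0.25). Nfil3, the repressor that competes with Dbp, measured 7.47 to 8.90 in Car6-/- and 6.49 to 8.09 in wild-type trachea (1.08 ± 0.25), and the deubiquitinase gene Usp2, a rhythmic output, stood at -0.81 ± 0.21. The repressor genes Nr1d1 (-0.39 ± 0.15) and Nr1d2 (-0.65 ± 0.19) were lower and Clock lay at 0.10 ± 0.15.

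In lung, in the model of all 4 groups, the genotype difference was 1.27 ± 0.24 for Arntl, -1.33 ± 0.36 for Dbp, 0.85 ± 0.26 for Nfil3, -0.59 ± 0.23 for Tef and -0.51 ± 0.18 for Usp2. Rora, a clock activator, stood at -0.40 ± 0.18 in trachea and 0.01 ± 0.14 in lung. The labels used here give no time of day at which tissue was taken. Unlike the muscle, thyroid and fat lists, the clock genes Arntl, Dbp and Tef differed in Car6-/- trachea 4 and 5, the samples nearest to wild type in those lists.

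Genes near Car6 on chromosome 4 numbered 43 among those tested. Of these 13 had an unadjusted p under 0.05 in trachea, 4 higher and 9 lower, and the median was 0.02. Over all 9718 genes 9.32% were higher and 7.89% lower at that p. The higher genes near Car6 were thus about as frequent as elsewhere and the lower ones, 9 of 43, more frequent, a difference that was not tested. Besides Rbp7 and Spsb1, the members with the smallest p were Clstn1, which encodes a cargo adaptor of kinesin, and Tnfrsf9, the T cell costimulatory receptor CD137. Clstn1 measured 5.47 to 6.42 in Car6-/- and 6.35 to 6.94 in wild-type trachea (-0.73 ± 0.16), with 5 of 6 Car6-/- samples below all wild-type samples. Tnfrsf9 measured 4.23 to 5.83 in Car6-/- and 5.42 to 6.57 in wild-type trachea (-1.05 ± 0.27) and was above the detection limit in 2 of 6 Car6-/- samples and all 8 wild-type ones. Fbxo2 (-0.88 ± 0.26) and Klhl21 (-0.57 ± 0.15), which choose targets for ubiquitin ligases, and Agtrap, which binds the angiotensin receptor (-0.50 ± 0.14), were lower, and the death receptor gene Tnfrsf25 higher (0.68 ± 0.20), chosen after their values were seen.

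Lung p-values are from the model of all 4 groups, which pools the spread of lung with the larger one of trachea. Trachea p-values are from trachea samples alone. In lung 7 of the 43 had an unadjusted p under 0.05, against 3.09% of all 9718 genes. Of these 4 also did in trachea, with the same sign, against 0.875% of all genes in both tissues in either direction. They were Rbp7 (0.69 ± 0.25 in lung), Clstn1 (-0.97 ± 0.21), Agtrap (-0.67 ± 0.16) and Fbxo44 (-0.66 ± 0.28 in trachea and -0.62 ± 0.23 in lung). Spsb1, Kif1b and Tnfrsf9 stood at 0.00 ± 0.10, 0.26 ± 0.16 and -0.06 ± 0.20 in lung. Clstn1 and Agtrap were thus lower and Rbp7 higher in both tissues.

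**Figure D5:**
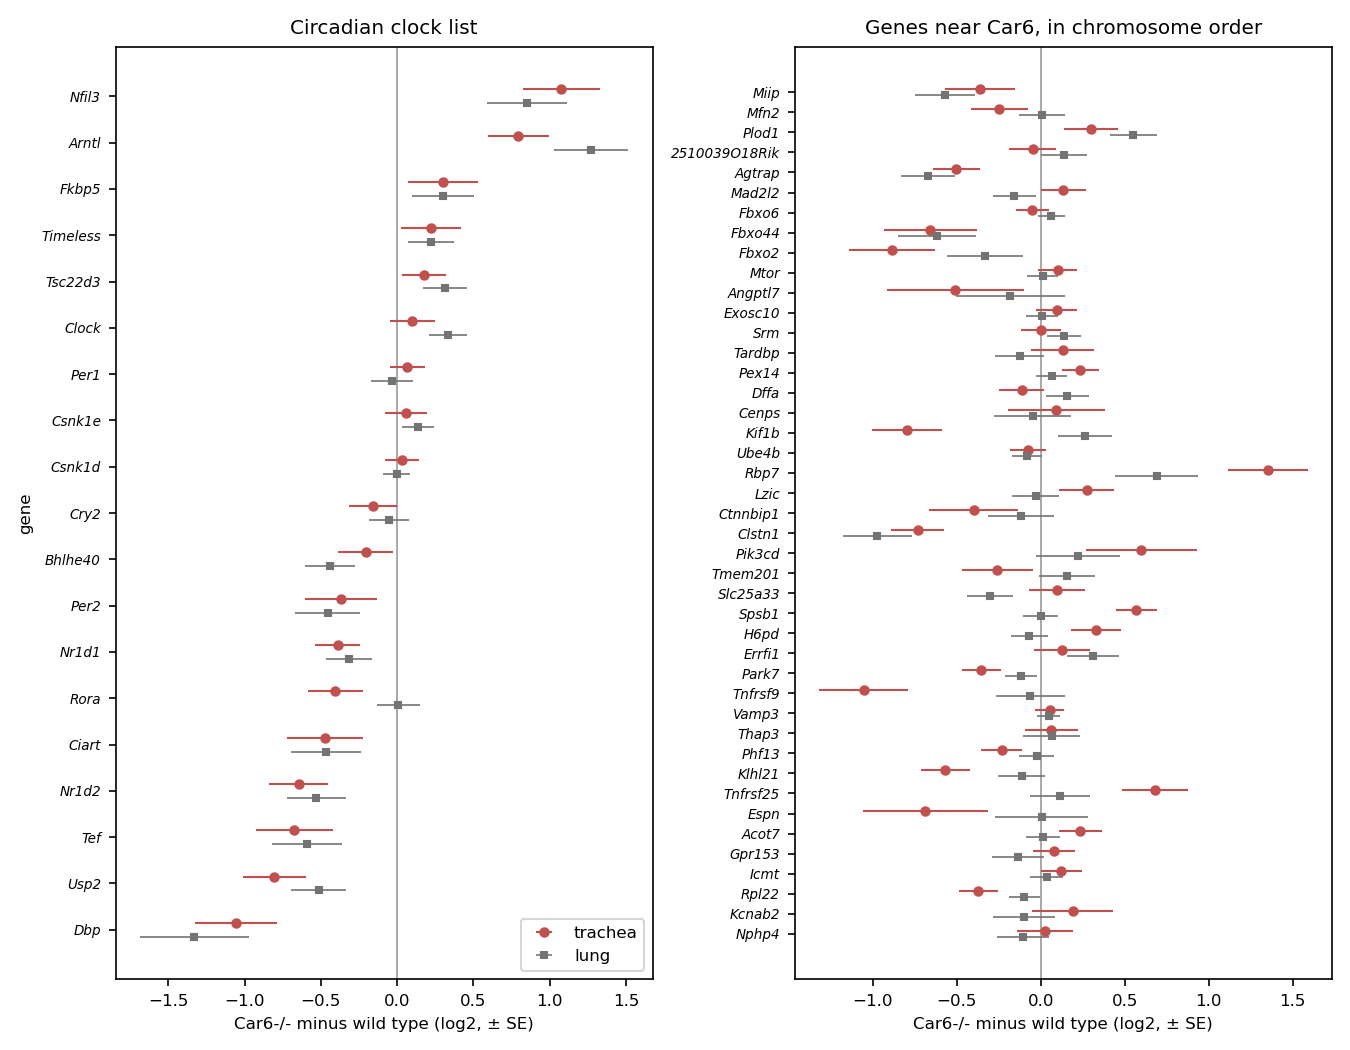
Genotype difference with its standard error in trachea (red circles) and in lung (grey squares) for the circadian clock list (left) and for genes near Car6 in chromosome order (right), Car6-/- minus wild type on the log2 scale. Arntl stands at 0.80 and 1.27, Dbp at -1.06 and -1.33 and Clstn1 at -0.73 and -0.97 in trachea and lung, while Spsb1 stands at 0.57 in trachea and 0.00 in lung. Standard errors in lung are from the model of all 4 groups, those in trachea from trachea samples alone.

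Other carbonic anhydrases numbered 8, of which 5 were higher, 2 with an unadjusted p under 0.05. Car5b, a mitochondrial form, measured 6.23 to 7.51 in Car6-/- and 5.91 to 6.49 in wild-type trachea, with 5 of 6 Car6-/- samples above all wild-type samples (0.61 ± 0.18). Car4, the membrane form of capillary endothelium, measured 8.42 and 8.85 in Car6-/- trachea 1 and 2, 6.03 to 7.61 in 4 to 7 and 6.00 to 6.78 in wild-type trachea (0.96 ± 0.38), high in the samples with high endothelial levels. Car12, a membrane form of epithelia, measured 4.32 to 6.18 in Car6-/- and 4.90 to 6.72 in wild-type trachea and was above the detection limit in 3 of 6 Car6-/- samples and 7 of 8 wild-type ones (-0.77 ± 0.35). Car3, abundant in fat and slow muscle, stood at 0.36 ± 0.19, Car13 at -0.44 ± 0.43, Car11 at 0.13 ± 0.20, the cytosolic Car2 at -0.11 ± 0.23 and Car14 at 0.03 ± 0.19. Of 25 genes of bicarbonate, chloride, sodium and proton transport 13 were higher and 12 lower (median 0.02). Scnn1b, a subunit of the epithelial sodium channel, measured 5.99 to 9.33 in Car6-/- and 8.56 to 9.76 in wild-type trachea (-1.25 ± 0.45), and the potassium channel gene Kcnn4 stood at -0.71 ± 0.28. Hvcn1, a proton channel of B cells, stood at 1.26 ± 0.51 and was highest in Car6-/- trachea 2, the sample with the highest B cell level.

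Whether the genotype difference in trachea departed from that in lung was tested in 1 model of all 4 groups. Lung and trachea samples carry the same numbers within genotype. The labels do not say whether same-numbered samples came from the same mouse, and this test did not pair them. No gene passed (0% of 9718, lowest adjusted p = 0.167). Lower in trachea relative to lung, with the smallest p, were Kif1b, a kinesin motor (-0.80 ± 0.21 in trachea and 0.26 ± 0.16 in lung), Exoc3l4 (-0.54 ± 0.15 and 0.32 ± 0.13) and Tmc7 (-0.81 ± 0.23 and 0.42 ± 0.19), with Abcb4 and ILMN_1220244. Higher were Smoc1, a matricellular protein (1.11 ± 0.27 in trachea and -0.33 ± 0.23 in lung), the dynein light chain gene Tcte3 (0.55 ± 0.14 and -0.18 ± 0.12), the kinase gene Aatk (1.10 ± 0.25 and -0.07 ± 0.19), Pparg (-0.07 ± 0.26 in lung) and the fatty acid receptor gene Ffar4 (1.17 ± 0.27 and -0.06 ± 0.21). In lung the list medians stayed between -0.18 and 0.31 where those in trachea spanned -2.49 to 0.84. The count of called genes was 689 without Car6-/- trachea 4, 223 without Car6-/- trachea 5, 2 without wild-type trachea 3 and 120 with array quality weights.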

How the data were processed

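Total RNA of 28 samples was measured on 32 Illumina bead arrays. The authors deposited 1 intensity per probe and array, not normalized, with a detection p-value beside it per the file headers. The authors also deposited log2 values, which matched the log2 of intensities quantile-normalized within each tissue (100% of differences up to 0.0051).

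In R 4.3.3, limma 3.58.1 subtracted background by normexp (nec, offset 16). The 32 arrays were then quantile-normalized together, put on the log2 scale and averaged where a sample had 2. Probes detected (p under 0.01) in 6 or more of the 14 trachea samples were kept, 12668 of 25697. The brightest probe stood for each symbol, and 722 unnamed probes were tested under their number, which gave 9718 genes. Of all probes 23978 carried 1 symbol, 0 several and 1719 none. RefSeq (23962 named probes matched) was used only for names and gene order. Car6-/- and wild-type trachea were compared with limma (lmFit, eBayes, Benjamini-Hochberg), as was the genotype difference in trachea minus that in lung. Standard errors and p-values in lung are from the model of all 4 groups, those in trachea from trachea samples alone. All adjusted p-values are from limma.

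The comparison, its gene lists and tests were chosen with earlier results of these data known, and 1 list (developing T cells) and some genes were added after values were seen. The genes named are the 12 smallest p per direction, for each list described up to 4 members with the smallest p and, for tissue lists, the brightest member, all tested carbonic anhydrases, and 5 per direction for the difference from lung. Deviations of same-numbered Car6-/- and wild-type samples gave mixed correlations (-0.20 to 0.57 over 6 numbers), which do not settle whether they pair. The labels name no pairs, and the numbers were not taken as pairs. In data simulated with the spread of the trachea samples, 22 of 100 genes changed by 0.5 and 77 of 100 changed by 1 on the log2 scale were recovered, with 4 unchanged genes among 103 calls. For the difference from lung, simulated with the spread pooled over all 4 groups, 21 and 74 were recovered, with 4 unchanged genes among 99 calls. Both simulations drew each gene independently with the same spread in every group, whereas Car6-/- trachea varied more than wild-type trachea. The recovered counts thus need not hold for these data, and the number of arrays limits the precision.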

Additional observations from a re-analysis of the deposited data

Results flagged for a closer look

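Of 144 groups of samples examined, 10 held a lowest or highest sample that stood apart from the rest of its group by Dixon's criterion, and chance flags about 1 in 20. In wild-type trachea 3, brown adipocyte genes were lowest at 7.26, neutrophil genes highest at 7.97 and erythroid genes highest at 8.90. Angptl4 was highest there at 9.47 and Art5 lowest at 6.94. In wild-type trachea 5, the level of parathyroid and C cell genes was lowest at 5.52, that of tuft, neuroendocrine and ionocyte genes lowest at 5.98 and that of white adipocyte genes highest at 8.67. In wild-type trachea 4, glycolysis genes were highest at 10.06. In Car6-/- trachea 7, genes of bicarbonate, chloride, sodium and proton transport were lowest at 7.20.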

How the results depend on the processing

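No gene was called in trachea under the other normalizations, background settings and filters, with first arrays only, array quality weights or an intensity trend, or in the authors' log2 table, as under the original settings. The count was 1129 with the spread shared over all 4 groups and 1 with the replicate block (Kcna7, -1.42, limma adjusted p = 0.0434), where Car14 stood at -0.019. The labels name no pairs between genotypes, so that this block only adjusts for a shared number. Leaving out 1 sample gave 0 to 693 calls, with 693 without Car6-/- trachea 4, 1 without Car6-/- trachea 5 and 1 without wild-type trachea 1. For the difference from lung it gave 0 to 689, and the count was 120 with array quality weights. It was 0 with a different block, of lung and trachea samples of the same genotype and number (consensus correlation -0.02). The clock median ranged from -0.27 to -0.055 when 1 sample was left out, and over the same fits Car14 ranged from -0.076 to 0.14, Car2 from -0.22 to 0.0084, Clock from -0.054 to 0.15 and Myl1 from -0.20 to 0.015. The smooth muscle median was 0.31 with no filter on dim probes. Among settings chosen after seeing the data, each with 0 calls in trachea, leaving out Car6-/- trachea 1 and 2 gave -0.11 for Car14 and 0.17 for Myl1. Leaving out Car6-/- trachea 1, 2 and 6 gave medians of 0.19 for smooth muscle and -0.48 for fast-fibre muscle, and changes of -0.013 for Car11, 0.073 for Car13, 0.011 for Krt14, 0.15 for Myl1, 0.079 for Pth and -0.073 for Wfdc2. Leaving out wild-type trachea 1 and 5 gave 0.11 for Car2. The causes were not tested. Probes near background limit the precision of Car12, Fcmr, Tff1 and Tnfrsf9.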

Other observations

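Several smaller gene groups held members that differed from wild type in some samples. Of 14 Schwann cell and nerve genes 11 were higher (median 0.24, and 0.04 without Car6-/- trachea 1, 2 and 6), among them the myelin gene Mbp with 8.69 to 10.26 in Car6-/- and 8.42 to 9.13 in wild-type trachea (0.65 ± 0.22). Egr2, the factor of myelination that is also an immediate early gene, stood at 0.64 ± 0.21, while the myelin and lymphocyte gene Mal stood at -0.73 ± 0.30. Mast cell genes were higher in 7 of 8 cases, 1 with an unadjusted p under 0.05 (median 0.47, 0.29 without Car6-/- trachea 6 alone and -0.10 without 1, 2 and 6). The mast cell carboxypeptidase gene Cpa3 measured 6.92 to 8.62 in Car6-/- and 6.87 to 7.42 in wild-type trachea (0.52 ± 0.22). Of 9 erythroid genes 7 were higher, 4 with an unadjusted p under 0.05, and 1 of the 2 lower members also had one (median 0.52). That median was 0.05 with no filter on dim probes, 0.12 with every probe tested on its own and 0.13 without Car6-/- trachea 1, 2 and 6, and the level in wild-type trachea 3, 8.90, was above that of all Car6-/- samples. The globin gene Hbb-bt, whose near-identical copy can share its signal, measured 10.99 to 12.21 in Car6-/- and 9.90 to 11.95 in wild-type trachea (0.80 ± 0.28).

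Stress genes gave mixed values. The co-chaperone gene Chordc1 measured 9.49 to 10.19 in Car6-/- and 8.86 to 9.60 in wild-type trachea (0.57 ± 0.14), and 0.60 was its genotype difference in lung. In the unfolded protein and integrated stress list 22 of 29 genes were lower, 2 with an unadjusted p under 0.05 (median -0.14, and -0.05 without Car6-/- trachea 1, 2 and 6). Chac1, which degrades glutathione, measured 5.92 to 8.53 in Car6-/- and 7.90 to 10.79 in wild-type trachea (-1.60 ± 0.46). The damage response gene Gadd45a stood at -0.58 ± 0.17. Of 18 hypoxia response genes 13 were lower (median -0.12, and -0.07 without Car6-/- trachea 1 and 2). Among 39 xenobiotic and redox genes 24 were higher (median 0.06, and -0.07 without Car6-/- trachea 1, 2 and 6). Of the higher ones 3 had an unadjusted p under 0.05, a share below the 9.32% of all genes. Among the higher genes were the aldo-keto reductase gene Akr1b8 (0.87 ± 0.25) and the monooxygenase gene Fmo1 (0.79 ± 0.29). The 18 glucocorticoid response and metallothionein genes had a median of 0.07 (-0.05 without Car6-/- trachea 1 and 2), with the metallothionein gene Mt1 at -0.50 ± 0.20. The 7 salivary-type genes had a median of -0.18, which was 0.16 without wild-type trachea 5 alone, 0.24 without wild-type trachea 1 and 5 and 0.36 with probes detected in every sample. Without Car6-/- trachea 1, 2 and 6, the median of the 11 tuft, neuroendocrine and ionocyte genes was 0.01 (0.36 with all samples), that of the 4 lymphatic endothelial genes -0.05 (0.32), that of the 15 alveolar type 1 genes -0.23 (0.06) and that of the 26 antimicrobial genes -0.08 (0.07).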
